A study of Mus musculus with 3 samples.

Results

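Ly6c2-high classical monocytes of mouse bone marrow were compared between fusion knock-in and wild-type mice in droplet 3′ single-cell RNA sequencing. Cells were chosen by a gate on raw UMI counts (UMIs are molecular identifiers, 1 per captured transcript): Csf1r of at least 1, Ly6c2 of at least 2, Mpo under 10, Elane plus Prtn3 under 10, at most 1 of Ace, Cx3cr1, Clec4a3 and Treml4 detected, no Siglech, no Cd209a, and Camp, Ngp, Ltf and Lcn2 together under 1% of the cell's UMIs. The gate held 634 of 22376 cells passing the quality filter (a minimum of 1000 UMIs and 400 genes, and mitochondrial UMIs no higher than 10%). It took 237 of 7538 cells of fusion replicate 1, 205 of 7213 of fusion replicate 2 and 192 of 7625 of the wild-type library. The 2 fusion libraries carry the genotype Ep300-Znf384-V5-HA, an allele joining Ep300, a histone acetyltransferase gene, to the zinc finger gene Znf384 with V5 and HA tags, and the 1 reference library is labelled wild type. All libraries came from males aged 6 weeks, from femur and tibia marrow after red cell lysis, and each was a pool of live sorted cells, 5000 of them from whole marrow and 5000 from a lineage-negative selection. The labels do not say that the libraries are separate animals, so p-values rest on the spread between these samples, which may be technical. The fit shares that spread across genes, so a p-value does not measure a gene's own spread. The labels do not give the promoter that drives the allele.

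Classical monocytes are short-lived phagocytes that form in the marrow from Csf1r-positive progenitors, leave it by way of the chemokine receptor CCR2 and enter inflamed tissue. In mice they carry the surface protein Ly6C, of which Ly6c2 is the main gene in monocytes, and they are followed by Ly6C-low nonclassical monocytes that patrol vessels and express Cx3cr1, Ace and Treml4. In mice, neutrophil-like and dendritic-cell-like forms of classical monocytes have been described, the second marked by MHC class II genes.

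The gate proved to hold 2 kinds of cell, and they were kept apart in what follows. S100a8 and S100a9, the most abundant transcripts of neutrophils, made up at least 1% of the UMIs in 109 of 237 and 108 of 205 gated cells of the fusion libraries (46.0% and 52.7%), against 48 of 192 wild-type cells (25%). Only 5, 4 and 6 cells of fusion replicate 1, fusion replicate 2 and wild type lay between 0.5% and 2%. Among the cells at or above 1%, 107 and 102 in fusion and 37 in wild type had no UMI of Ccr2, F13a1 or Ms4a6c, and 92 and 97 in fusion and 46 in wild type had at least 5 UMIs of Retnlg, a neutrophil gene. These markers go against the label for the S100-high cells. Among the cells under 1%, 93 of 128 and 77 of 97 in fusion and 118 of 144 in wild type had UMIs of all of Ccr2, F13a1 and Ms4a6c. Those 369 cells are called S100-low cells here. This threshold was chosen after the data were seen.

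**Figure D1:**
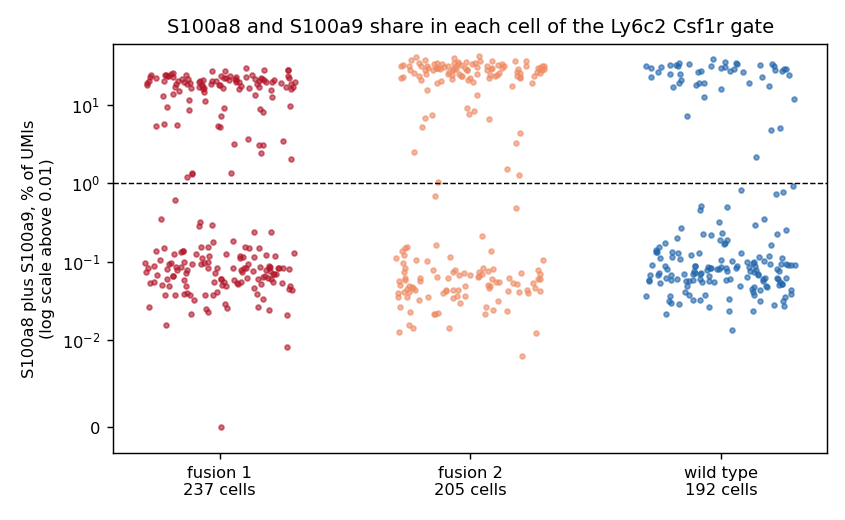
Percentage of each gated cell's UMIs that come from S100a8 and S100a9 (log scale above 0.01), 1 point a cell, for fusion replicate 1 (237 cells), fusion replicate 2 (205 cells) and wild type (192 cells). The dashed line marks 1%, above which lie 109, 108 and 48 cells, and few cells lie near it.

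The libraries held 97192347 and 111836603 UMIs in fusion and 93262028 in wild type. S100-low cells had a median of 8445 and 12148 UMIs in fusion and 8485 in wild type, and supplied 1286478, 1350669 and 1553896 UMIs in the same order, while the S100-high cells had a median of 2330, 2809 and 3551 UMIs. Neutrophil markers summed to 1393 and 1279 CPM, the UMI count scaled by the total of the summed cells, in S100-low cells of fusion and 1313 CPM in those of wild type, against 177756, 228751 and 234977 CPM in S100-high cells. Erythroid markers summed to 445 and 637 CPM in fusion and 871 CPM in wild type, where 399 of 449 haemoglobin UMIs came from 1 cell, and B cell markers to 57.5, 18.5 and 45.7 CPM. T and NK cell markers summed to 15.5 and 46.6 CPM in fusion and 85.6 CPM in wild type, and macrophage markers to 22.5, 16.3 and 41.2 CPM in the same order; the part of any of these cells in the results below was not tested. Markers of other cells that had no UMI in S100-low cells of any library included Siglech, Klk1, Cd209a, Xcr1, Ace, Cd300e, Fabp4, Mertk, Cd5l, Epx, Siglecf and Il5ra. Between libraries, 19 to 23 cell barcodes recurred, none of them gated in both.

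The share of S100-low cells was lower in both fusion libraries than in wild type, and that of S100-high cells was higher. S100-low cells made up 1.70% and 1.34% of kept cells in fusion (mean 1.52% ± 0.25, SD, n = 2), against 1.89% in wild type, a ratio of 0.806. S100-high cells made up 1.45% and 1.497% in fusion, against 0.630% in wild type, a ratio of 2.34. The whole gate, their sum, was 3.14% and 2.84% against 2.52%. The exact 2-sided permutation test of 2 libraries against 1 cannot go below p = 0.333, and gave p = 0.667 for the S100-low share and p = 0.333 for the whole gate. Outside the erythroid gate, whose cells were more numerous in fusion (2648 and 2551 in fusion, against 1389 in wild type), the S100-low ratio was 1.02. With Ms4a6c of at least 2 in place of Ly6c2 it was 0.672.

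Gated cells at the edge of the Ly6c2 threshold were mostly S100-high. With exactly 2 Ly6c2 UMIs, just inside, there were 44 and 47 cells in fusion and 24 in wild type, of which 6, 4 and 12 were S100-low. With exactly 1 UMI, just outside, there were 94 and 97 cells in fusion and 70 in wild type, of which 20, 20 and 30 were S100-low. Ccr2 in those S100-low cells was 158 and 62.8 CPM in fusion and 87.4 CPM in wild type just inside, and 0, 7.65 and 98.4 CPM just outside.

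Ly6c2 itself, which chose the cells, stood higher in the chosen cells of fusion marrow, given here as a description. Its median was 59.3 and 59.96 UMIs per 10000 in S100-low cells of fusion, against 20.1 in those of wild type, and its level over all S100-low UMIs was 5252 and 4826 CPM in fusion, against 1760.1 CPM in wild type. Fusion cells ranged over 19.0 to 90.6 and 16.6 to 86.3 per 10000 between their quartiles, and wild-type cells over 8.93 to 28.8. Csf1r, the receptor for the monocyte growth factor CSF1 and also a gate gene, was 289.9 and 196 CPM in fusion, against 194 CPM in wild type. Mpo, Cd34 and Kit mark progenitors: Mpo, held under 10 by the gate, was at 44.3 and 45.2 CPM in fusion and 85.6 CPM in wild type, Cd34 at 32.6, 27.4 and 18.7 CPM and Kit at 14.8, 27.4 and 11.6 CPM. Their part in the results below was not tested.

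Counts were summed per library and tested with edgeR's quasi-likelihood test, with Benjamini-Hochberg adjustment over all genes tested and a threshold of 0.05. In S100-low cells, 30 genes rose in fusion (0.325% of 9222 genes tested) and 108 fell (1.17%). In the whole gate, 85 rose (0.884% of 9617) and 116 fell (1.21%). The calls shared by both fits were 108 genes, 53.7% of the whole gate's calls and 78.3% of those in S100-low cells. The number of calls depended heavily on the method: in S100-low cells DESeq2 called 5 genes higher (0.0542%) and 7 lower (0.0759%). With no filter on low counts, or with Ly6c2 of at least 5, edgeR called 0, with 501 and 475 genes at an unadjusted p under 0.05. DESeq2's calls were all among edgeR's: Spp1, H2-Aa, Cd74, H2-Ab1, Ctsg, Vcan, Fn1, Ccr1, Gda and 3 haemoglobin genes, the last set by 1 wild-type cell. Between libraries of the same cells, the median absolute log2 difference over 6121 genes of mean CPM of at least 20 was 0.24 between the fusion libraries, and 0.23 and 0.22 between each of them and wild type.

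**Figure D2:**
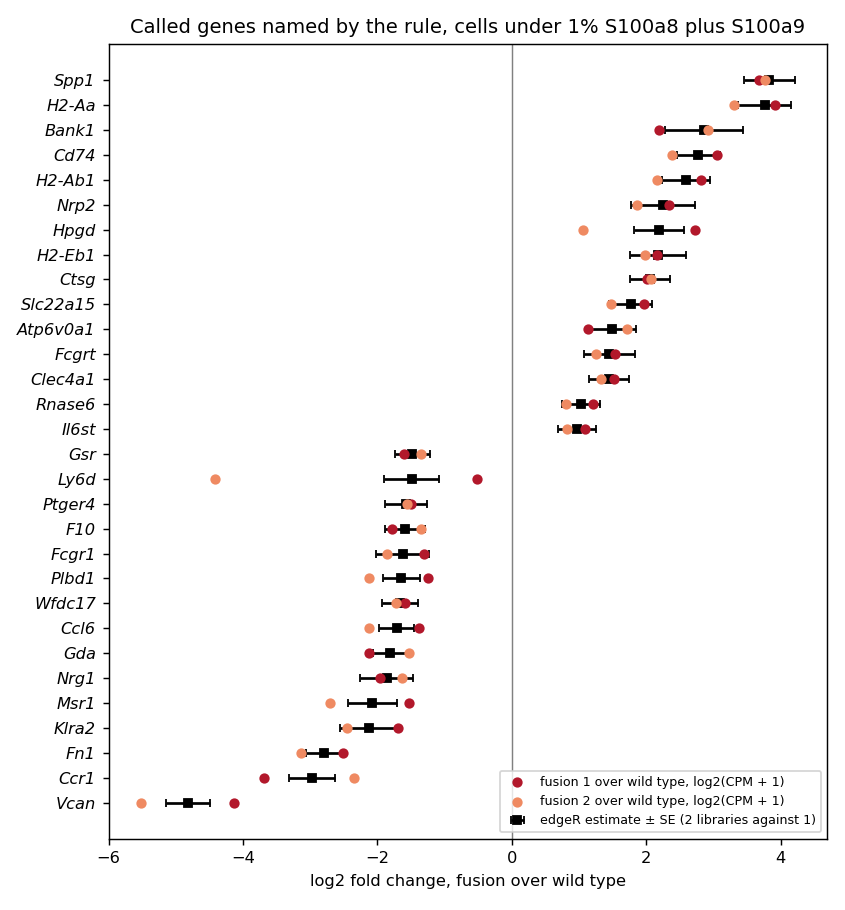
Log2 fold change, fusion over wild type, of the 15 higher and 15 lower genes given by the naming rule in S100-low cells. Black squares with bars are edgeR estimates ± SE (2 fusion libraries against 1 wild-type library) and coloured points each fusion library over wild type on the log2(CPM + 1) scale; Hpgd and Ly6d are the genes whose 2 points lie farthest apart.

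The classical MHC class II chains H2-Aa, H2-Ab1 and H2-Eb1, which present peptides to CD4 T cells, and their partners Cd74 and Ciita rose in S100-low cells of fusion marrow, while H2-DMa and H2-DMb1, whose product loads the peptide, did not pass the test. H2-Aa (ENSMUSG00000036594; chromosome 17, 34282744 to 34287823, GRCm38), an alpha chain, was at 151 and 99.1 CPM in the fusion libraries, against 9.16 CPM in the wild-type library (log2 fold change with its SE, 3.76 ± 0.39, edgeR adjusted p = 1.1e-18). Both fusion libraries lay far above wild type. H2-Ab1, its beta chain partner, was at 122 and 76.4 CPM in fusion, against 16.4 CPM in wild type (2.59 ± 0.35, edgeR adjusted p = 1.83e-10). H2-Eb1, a second beta chain, was at 47.4 and 41.6 CPM in fusion, against 9.81 CPM in wild type (2.17 ± 0.42, edgeR adjusted p = 4.3e-05). Cd74, the invariant chain that guards the peptide groove, was at 592 and 373 CPM in fusion, against 70.7 CPM in wild type (2.77 ± 0.32, edgeR adjusted p = 4.3e-15). Ciita, the coactivator that switches these genes on, was low but higher in both fusion libraries, at 17.6 and 12.9 CPM in fusion, against 0.654 CPM in wild type (4.36 ± 1.01, edgeR adjusted p = 0.00252). H2-DMa was at 311 and 216 CPM in fusion, against 175 CPM in wild type (0.59 ± 0.28, edgeR adjusted p = 0.56), and H2-DMb1 at 95.6 and 74.2 CPM in fusion, against 50.4 CPM in wild type (0.75 ± 0.30, edgeR adjusted p = 0.337).

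The promoters of H2-Aa and H2-Eb1 are shown because class II promoters are known to hold a Y box, a CCAAT sequence read on either strand, bound by NF-Y next to the CIITA platform. Sequences are RefSeq windows of GRCm38.p6, from 250 bases before to 50 bases after the gene start, 5′ to 3′ on the gene's strand, with CCAAT or its complement ATTGG in capitals. H2-Aa lies on the minus strand (chr17:34287774-34288073) and H2-Eb1 on the plus strand (chr17:34305617-34305916).
H2-Aa: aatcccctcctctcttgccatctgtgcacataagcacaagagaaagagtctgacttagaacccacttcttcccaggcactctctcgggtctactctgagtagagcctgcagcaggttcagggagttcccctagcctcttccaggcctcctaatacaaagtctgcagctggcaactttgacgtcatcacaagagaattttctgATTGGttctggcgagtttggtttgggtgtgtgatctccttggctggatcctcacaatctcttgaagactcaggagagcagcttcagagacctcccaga
H2-Eb1: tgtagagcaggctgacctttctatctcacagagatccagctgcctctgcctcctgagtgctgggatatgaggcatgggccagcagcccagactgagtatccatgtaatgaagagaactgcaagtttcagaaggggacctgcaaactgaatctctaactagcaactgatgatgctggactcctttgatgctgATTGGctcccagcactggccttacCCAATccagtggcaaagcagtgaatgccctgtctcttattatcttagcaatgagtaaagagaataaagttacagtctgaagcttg
H2-Aa held 1 match, an ATTGG that begins 48 bases before the start. H2-Eb1 held 2, an ATTGG at 59 and a CCAAT at 35 bases before the start. Of all 32851 promoter windows, 37.4% held CCAAT or ATTGG, so a match is a description and not a binding site.

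The share of cells with class II transcripts differed likewise. UMIs of H2-Aa, H2-Ab1 or H2-Eb1 were found in 34 of 128 and 20 of 97 S100-low cells of fusion (26.6% and 20.6%), against 5 of 144 in wild type (3.47%). After thinning to 3000 UMIs a cell, which left 124, 96 and 142 cells, the shares were 19.4% (exact 95% interval 12.8% to 27.4%) and 15.6% (9.02% to 24.5%) in fusion, against 2.11% (0.438% to 6.05%) in wild type. T and NK cells, which should lack these genes and so measure free RNA, gave 12.2%, 3.57% and 8.05% on the same scale, from 41, 56 and 174 cells left by thinning. All T and NK cells had median depths of 2956, 4869 and 5444 UMIs. Both fusion shares lay above those of the T and NK cells of the same library. The wild-type share lay below that of its T and NK cells and cannot be told from background. No interval was computed for the T and NK shares, which rested on few cells in fusion. Whether the fusion shares exceed background was not tested. At least 2 UMIs of Cd74 were found in 25% and 15.6% of thinned fusion cells, against 2.82% in wild type, and in 4.88%, 0 and 3.45% of T and NK cells. The dendritic-cell-like list, which holds these genes, had 5 of 14 tested members rise and 1 fall, against 0.325% and 1.17% of all genes tested. Its median log2 fold change was 0.45, against a median of 0.00 over all genes tested. Of the 14, 8 had both fusion libraries above wild type and 4 had both below. Flt3, a dendritic cell growth factor receptor, was at 53.5 and 25.7 CPM in fusion, against 36.6 CPM in wild type (0.11 ± 0.32, edgeR adjusted p = 1). Clec10a, a lectin, was at 13.8 and 10.6 CPM in fusion, against 17.7 CPM in wild type (-0.53 ± 0.51, edgeR adjusted p = 1). These levels are over all S100-low cells, a minority of which held class II UMIs, and the part of dendritic cells was not tested. Id2, a transcriptional inhibitor needed by dendritic cells and also expressed by T and NK cells (238 and 239 against 357 CPM), whose marker sum in these monocyte-gated cells was likewise lower in fusion, fell (43.6 and 26.5 CPM in fusion, against 102 CPM in wild type; -1.54 ± 0.29, edgeR adjusted p = 1.85e-05).

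Spp1 (ENSMUSG00000029304; chromosome 5, 104435118 to 104441050), which encodes the secreted protein osteopontin, showed the largest rise under the naming rule. It was at 154 and 164 CPM in the fusion libraries, against 11.1 CPM in the wild-type library (3.83 ± 0.38, edgeR adjusted p = 9.13e-21), with the fusion libraries close to each other. In cells without any class II UMI it was 145 and 147 CPM in fusion, against 11.8 CPM in wild type, so the rise remained without cells holding class II UMIs. T and NK cells held 2.05 and 0 against 5.47 CPM.

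The other named genes that rose were of mixed function. Ctsg, which encodes the granule protease cathepsin G of early myeloid cells, was at 248 and 257 CPM in fusion, against 60.8 CPM in wild type (2.05 ± 0.30, edgeR adjusted p = 1.04e-08). The T and NK gate held 215 and 18.9 CPM of Ctsg in fusion, against 303 CPM in wild type. Basophil and mast cell markers in that gate summed to 1787 and 58.7 CPM in fusion, against 1290 CPM in wild type. In S100-low cells they summed to 10.1, 14.1 and 30.9 CPM in the same order. Apoe, a lipid carrier of macrophages, was at 323 and 206 CPM in fusion, against 87.0 CPM in wild type (1.60 ± 0.29, edgeR adjusted p = 1.46e-05), and in cells without class II UMIs at 222 and 121 CPM in fusion, against 90.8 CPM in wild type. Slc22a15, a solute carrier, was at 133 and 94.6 CPM in fusion, against 33.4 CPM in wild type, and Clec4a1, a C-type lectin of monocytes, at 164 and 143 CPM in fusion, against 56.3 CPM in wild type. Nrp2, a co-receptor for semaphorins and VEGF, was at 40.5 and 28.8 CPM in fusion, against 7.20 CPM in wild type, and Bank1, an adaptor best known from B cells, at 21.4 and 36.3 CPM in fusion, against 3.93 CPM in wild type. The B cell marker sums are given above, and which cells held the Bank1 UMIs was not tested. Hpgd, which inactivates prostaglandins, was at 101 and 31.0 CPM in fusion, against 14.4 CPM in wild type, and without fusion replicate 1 its log2 difference was 1.06. Atp6v0a1 (a proton pump subunit), Fcgrt (the neonatal Fc receptor), Rnase6 (an antimicrobial ribonuclease) and Il6st (the shared receptor chain of IL-6 cytokines) rose by 1.49, 1.45, 1.03 and 0.97 on the log2 scale, with edgeR adjusted p = 0.00372, 0.0129, 0.0238 and 0.0466.

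**Figure D3:**
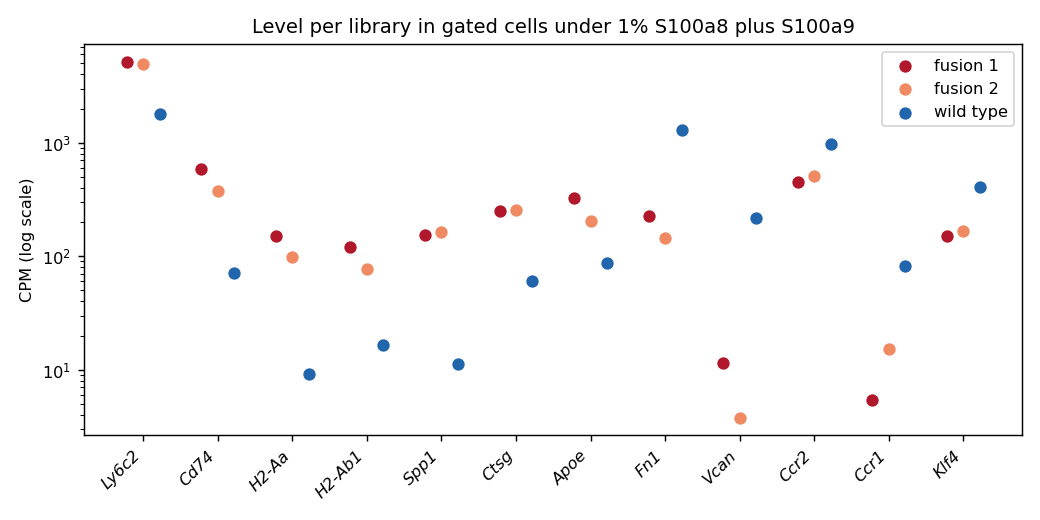
CPM (log scale) of 12 genes in S100-low cells, 1 point a library, with fusion replicates 1 and 2 left of wild type. Both fusion libraries lie above wild type for Ly6c2, Cd74, H2-Aa, H2-Ab1, Spp1, Ctsg and Apoe, and below it for Fn1, Vcan, Ccr2, Ccr1 and Klf4; Ly6c2 is a gate gene and was not tested.

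Vcan, Fn1 and Thbs1, all genes of secreted matrix proteins, fell in fusion; no list of matrix genes was tested, and Spp1, another secreted matrix protein, rose. Vcan (ENSMUSG00000021614; chromosome 13, 89655312 to 89742509), encoding the proteoglycan versican, was at 11.5 and 3.78 CPM in the fusion libraries, against 218 CPM in the wild-type library (-4.82 ± 0.33, edgeR adjusted p = 7.68e-44). Fn1, encoding fibronectin, was at 225 and 146 CPM in fusion, against 1293 CPM in wild type (-2.80 ± 0.27, edgeR adjusted p = 1.65e-22). Thbs1, encoding thrombospondin-1, had 0 UMIs in both fusion libraries and 24 in wild type, at least 13.6-fold lower in fusion when 3 counts over the pair of libraries are taken as the floor. After thinning, a UMI of Vcan or Fn1 was found in 39.5% and 22.9% of fusion cells, against 66.2% of wild-type cells, and in 2.44%, 0 and 2.30% of T and NK cells. Cells without class II UMIs gave the same picture, with Fn1 at 218 and 118 CPM in fusion, against 1318 CPM in wild type. Vcan and Fn1 did not overlap between the groups in either set of cells. Of all genes tested in S100-low cells, 33.8% had both fusion libraries below wild type, so such an order alone is common.

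Of the 22 classical monocyte identity genes tested, 1 rose and 6 fell, against 0.325% and 1.17% of all genes tested, and 15 did not pass. Their median was −0.52 and did not move when Thbs1 was set at its bound. Ccr2, the exit receptor, fell to 446 and 509 CPM in fusion, against 978 CPM in wild type (-1.03 ± 0.27, edgeR adjusted p = 0.0112). Its call was lost in 7 of 12 alternatives while its direction held. Ms4a6b fell (log2 -1.03), as did Hp, encoding haptoglobin (log2 -1.32). The riser was Clec4a1, given above. The 2 other markers that go with the label did not pass: F13a1, a coagulation factor subunit, was at 735 and 644 CPM in fusion, against 1096 CPM in wild type (-0.67 ± 0.27, edgeR adjusted p = 0.383), and Ms4a6c at 1125 and 973 CPM in fusion, against 1088 CPM in wild type (-0.05 ± 0.29, edgeR adjusted p = 1). Lyz2, encoding lysozyme, at 10746 and 6729 CPM in fusion, against 12560.3 CPM in wild type (-0.52 ± 0.33, edgeR adjusted p = 0.891), and Chil3, a chitinase-like protein, at 1022 and 722 CPM in fusion, against 1239.7 CPM in wild type (-0.51 ± 0.28, edgeR adjusted p = 0.77), did not pass either. Cd14, a co-receptor for lipopolysaccharide, was at 19.9 and 24.2 CPM in fusion, against 5.89 CPM in wild type (1.89 ± 0.57, edgeR adjusted p = 0.0648).

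Chemokine receptors and ligands were lower where they changed. Of 8 receptors tested, 2 fell and none rose, against 1.17% and 0.325% of all genes tested. Those that fell were Ccr2 and Ccr1. Ccr1, a receptor for inflammatory CC chemokines, was at 5.35 and 15.1 CPM in fusion, against 81.1 CPM in wild type (-2.97 ± 0.35, edgeR adjusted p = 7.48e-15). S100-high cells held 219.7 and 268 CPM in fusion, against 598 CPM in wild type of Ccr1. Of 7 ligands, Ccl6 fell to 123 and 72.7 CPM in fusion, against 322 CPM in wild type (-1.72 ± 0.26, edgeR adjusted p = 2.42e-08) and Ccl9 to 166 and 78.0 CPM in fusion, against 228 CPM in wild type (-0.90 ± 0.26, edgeR adjusted p = 0.0387). Without fusion replicate 2, the log2 difference of Ccl9 was -0.46, and without fusion replicate 1 it was -1.54. Ccl3 was at 28.3 and 23.5 CPM in fusion, against 53.6 CPM in wild type and did not pass. Pf4, a platelet chemokine, was called higher, but 490 of its 496 UMIs in fusion replicate 2 lay in 1 cell. Without that library it was at 8.41 CPM in fusion and 7.85 CPM in wild type.

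Receptors that recognise microbes, immune complexes and dead cells fell or did not pass, with 1 exception. Of 15 microbial sensing receptors, none rose and 2 fell, against 0.325% and 1.17% of all genes tested. Msr1, a scavenger receptor, fell to 18.3 and 7.57 CPM in fusion, against 55.0 CPM in wild type (-2.08 ± 0.36, edgeR adjusted p = 4.11e-06). Clec4e, a lectin for mycobacterial glycolipid, fell to 0 and 5.30 CPM in fusion, against 20.3 CPM in wild type (-2.89 ± 0.68, edgeR adjusted p = 0.00312). Clec4e had no UMI in fusion replicate 1; without that library its log2 difference was -1.76. Of 17 Fc and complement receptors, Fcgrt rose, and Fcgr1, the high-affinity IgG receptor, fell to 16.1 and 10.6 CPM in fusion, against 41.2 CPM in wild type (-1.62 ± 0.39, edgeR adjusted p = 0.00498) with Lilrb4a, an inhibitory receptor, at 55.0 and 54.5 CPM in fusion, against 147 CPM in wild type (-1.42 ± 0.27, edgeR adjusted p = 4.74e-05). C3, the central complement protein, was at 256 and 215 CPM in fusion, against 434 CPM in wild type (-0.88 ± 0.26, edgeR adjusted p = 0.0501). Klra2, a lectin-like receptor, fell to 12.2 and 6.81 CPM in fusion, against 41.9 CPM in wild type (-2.13 ± 0.42, edgeR adjusted p = 0.000117).

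Few lysosomal and protease genes passed the test. Of 21 tested, Ctsg rose, Ctsc and Ctse fell and 18 did not pass, where 0.325% of all genes tested rose and 1.17% fell. Both fusion libraries lay below wild type for 18 of the 21, against 33.8% of all genes tested, and the list's median was −0.40. Ctsc, the protease that activates granule proteases, was at 170.5 and 195 CPM in fusion, against 488 CPM in wild type (-1.42 ± 0.26, edgeR adjusted p = 1.46e-05), and Ctse, cathepsin E, at 3.82 and 9.84 CPM in fusion, against 31.4 CPM in wild type (-2.18 ± 0.50, edgeR adjusted p = 0.00186). Ctse in T and NK cells was at 53.4 and 22.7 CPM in fusion, against 27.3 CPM in wild type. Wfdc17, a protease inhibitor-like protein, was at 81.8 and 74.2 CPM in fusion, against 247 CPM in wild type, Plbd1, a phospholipase-like protein, at 58.1 and 31.0 CPM in fusion, against 139 CPM in wild type, and F10, coagulation factor X, at 24.5 and 33.3 CPM in fusion, against 87.0 CPM in wild type. Fcnb, encoding ficolin-B and a neutrophil-like monocyte gene, was at 3.06 and 3.78 CPM in fusion, against 27.5 CPM in wild type (-2.97 ± 0.59, edgeR adjusted p = 0.000105); T and NK cells held 6.16 and 5.68 against 84.8 CPM. Of the 11 neutrophil-like genes tested, Ctsg rose, and Fcnb and Anxa1 (annexin A1, 101 and 97.6 against 201 CPM) fell. Anxa1 in T and NK cells was at 355 and 134 against 299 CPM. Mmp8, a granule collagenase, was at 281 and 327 CPM in fusion, against 159.6 CPM in wild type (0.93 ± 0.28, edgeR adjusted p = 0.0618). Lpl, lipoprotein lipase, fell to 3.06 and 0.757 CPM in fusion, against 25.5 CPM in wild type (-3.68 ± 0.68, edgeR adjusted p = 1.52e-05).

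The remaining named genes that fell were Gda (guanine deaminase, 71.1 and 108 against 315 CPM in fusion and wild type), Gsr (glutathione reductase, 83.3 and 99.1 against 256 CPM), Nrg1 (neuregulin 1, 10.7 and 13.6 against 44.5 CPM), Ptger4 (a prostaglandin E2 receptor, 22.2 and 21.2 against 64.8 CPM) and Ly6d (a Ly6 family member, 25.2 and 0.757 against 36.6 CPM). Ly6d rested on fusion replicate 2: without it the log2 difference was -0.52, and T and NK cells held 90.3 and 20.8 against 9.57 CPM. S100a11, a calcium-binding protein, fell to 433 and 439.7 CPM in fusion, against 877 CPM in wild type (-1.01 ± 0.27, edgeR adjusted p = 0.0145). Gda, Gsr, Anxa1 and S100a11 were far higher in S100-high cells. Gda was there at 767 and 833 against 1541 CPM, and S100a11 at 5559 and 5118 against 4459 CPM. Most members of the neutrophil marker sum given above were limited by the gate or the split, so its level in S100-low cells was partly set by selection. Single markers went both ways there, with Lcn2 at 46.6 and 34.1 against 84.9 CPM and Mmp8 at 285 and 320 against 157 CPM. The part of neutrophil RNA in these falls was not tested.

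Of 24 myeloid transcription factors tested, Klf4 and Id2 fell, none rose and 22 did not pass, with a median of −0.03. Among all genes tested, 1.17% fell and 0.325% rose. Klf4, needed for monocyte formation, was at 149.8 and 167 CPM in the fusion libraries, against 409.5 CPM in the wild-type library (-1.37 ± 0.26, edgeR adjusted p = 3.07e-05). Irf8, which drives the monocyte and dendritic lineages, was at 868 and 775 CPM in fusion, against 851 CPM in wild type (-0.05 ± 0.28, edgeR adjusted p = 1). Of 22 growth factor and cytokine receptors, Il6st rose, and Il10ra, the IL-10 receptor, was at 69.6 and 47.7 CPM in fusion, against 27.5 CPM in wild type (1.09 ± 0.33, edgeR adjusted p = 0.0568), while Ifngr1, the interferon gamma receptor, was at 102 and 99.1 CPM in fusion, against 181 CPM in wild type (-0.84 ± 0.26, edgeR adjusted p = 0.0864). Ear2, a ribonuclease gene of nonclassical monocytes, fell to 1.53 and 3.03 CPM in fusion, against 33.4 CPM in wild type (-3.82 ± 0.61, edgeR adjusted p = 1.55e-07).

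Of 29 interferon-response genes tested, 5 fell, none rose and 24 did not pass, where 1.17% of all genes tested fell and 0.325% rose. Both fusion libraries lay below wild type for 26, against 33.8% of all genes tested, and the median log2 fold change was −0.78, against 0.00 over all genes tested. Ifi27l2a was at 438 and 678 CPM in fusion, against 1369.8 CPM in wild type (-1.30 ± 0.27, edgeR adjusted p = 0.000343), Zbp1, a nucleic acid sensor, at 35.2 and 23.5 CPM in fusion, against 65.4 CPM in wild type (-1.16 ± 0.30, edgeR adjusted p = 0.0129), and Ifi203, a nuclear DNA-binding protein, at 173 and 159.7 CPM in fusion, against 318 CPM in wild type (-0.94 ± 0.26, edgeR adjusted p = 0.0274). Slfn5 (111 and 40.9 against 148 CPM) and Ifi209 (102 and 52.2 against 147 CPM) also fell; without fusion replicate 2 their log2 differences were -0.42 and -0.53. Mpeg1, encoding the pore-forming perforin-2 and outside that list, fell to 288 and 213 CPM in fusion, against 572 CPM in wild type (-1.19 ± 0.26, edgeR adjusted p = 0.000829). Of 15 MHC class I genes, H2-Q7 alone fell, at 16.8 and 33.3 CPM in fusion, against 54.3 CPM in wild type (-1.11 ± 0.32, edgeR adjusted p = 0.0389), and without fusion replicate 1 its log2 difference was -0.69. H2-Q7 in T and NK cells was at 472 and 541 CPM in fusion, against 491 CPM in wild type.

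None of 20 S phase and none of 24 G2 and M phase genes was called, against 1.5% of all genes tested, with medians of −0.03 and 0.08, and the largest G2 and M phase difference was Kif23, a kinesin of cell division, at 215 and 199 CPM in fusion, against 149.8 CPM in wild type (0.47 ± 0.27, edgeR adjusted p = 0.83). Among 13 cyclins and inhibitors, Ccnd1, cyclin D1, fell to 23.7 and 29.5 CPM in fusion, against 65.4 CPM in wild type (-1.29 ± 0.31, edgeR adjusted p = 0.00353), and Ccnd2, cyclin D2, was at 169 and 146 CPM in fusion, against 85.0 CPM in wild type (0.89 ± 0.28, edgeR adjusted p = 0.0953). None of 18 adhesion genes, 9 interleukin-1 and inflammasome genes, 7 NADPH oxidase subunits or 11 iron-handling genes was called.

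The targeted genes were not called in these cells. Ep300 (chromosome 15, 81585351 to 81652077) was at 109 and 74.9 CPM in fusion, against 137 CPM in wild type (-0.58 ± 0.27, edgeR adjusted p = 0.583), and Zfp384, the mouse gene for ZNF384, at 35.9 and 23.5 CPM in fusion, against 22.9 CPM in wild type (0.37 ± 0.38, edgeR adjusted p = 1). The libraries count 3′ ends, and the labels do not say which exons the allele keeps, so these values do not check the genotype. None of the 10 targeted and acetyltransferase genes was called. Within 10 Mb of Ep300, 2 of 158 genes tested were called (1.27%, against 1.5% of all genes tested): Ly6d and Parvb.

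In the whole gate, several of the named genes that rose had their UMIs mostly in the S100-high cells. Mcam, an adhesion molecule, was at 93.3 and 93.1 CPM in fusion, against 1.13 CPM in wild type over the gate (6.28 ± 0.49, edgeR adjusted p = 2.06e-13), at 442 and 356 against 8.86 CPM in S100-high and 3.11 and 2.96 against 0 CPM in S100-low cells. Ly6g, the defining surface antigen of mouse neutrophils, was at 377 and 306 CPM in fusion, against 66.1 CPM in wild type (2.37 ± 0.29, edgeR adjusted p = 5.7e-08), with 4.66 and 2.96 against 1.93 CPM in S100-low cells. Ces1d and Stfa1 had no UMI in the wild-type gate and were at least 20.3-fold and 18.4-fold higher in fusion when the floor is 3 counts in that library. Hcar2, Prok2, Cdc42ep2, G0s2, Acot1 and Dgkh were named by the same rule and had 0 to 13.2 CPM in S100-low cells of every library. Spp1, H2-Aa, Cd74, H2-Ab1 and Nrp2 were named in both sets. Of the 15 genes named lower in the gate, Vcan, Fn1, Msr1, Klra2, Wfdc17, F10 and Ptger4 were also named in S100-low cells. The others were Ctsc, Klf4, Ccnd1, Ifi27l2a, Mpeg1, Arhgef37 (16.9 and 7.47 against 36.2 CPM), Bst1 (10.2 and 19.0 against 42.4 CPM) and Trps1 (62.0 and 48.9 against 141 CPM). In S100-high cells Fn1 stood at 0 and 6.76 CPM in fusion, against 465 CPM in wild type and Vcan at 0 and 0 CPM in fusion, against 93.0 CPM in wild type. The monocyte markers Ccr2 (0 and 29.3 against 354 CPM), F13a1 (2.93 and 74.3 against 460 CPM) and Ms4a6c (2.93 and 126 against 385 CPM) were lower there too. The part of a different mix of cells was not tested.

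**Figure D4:**
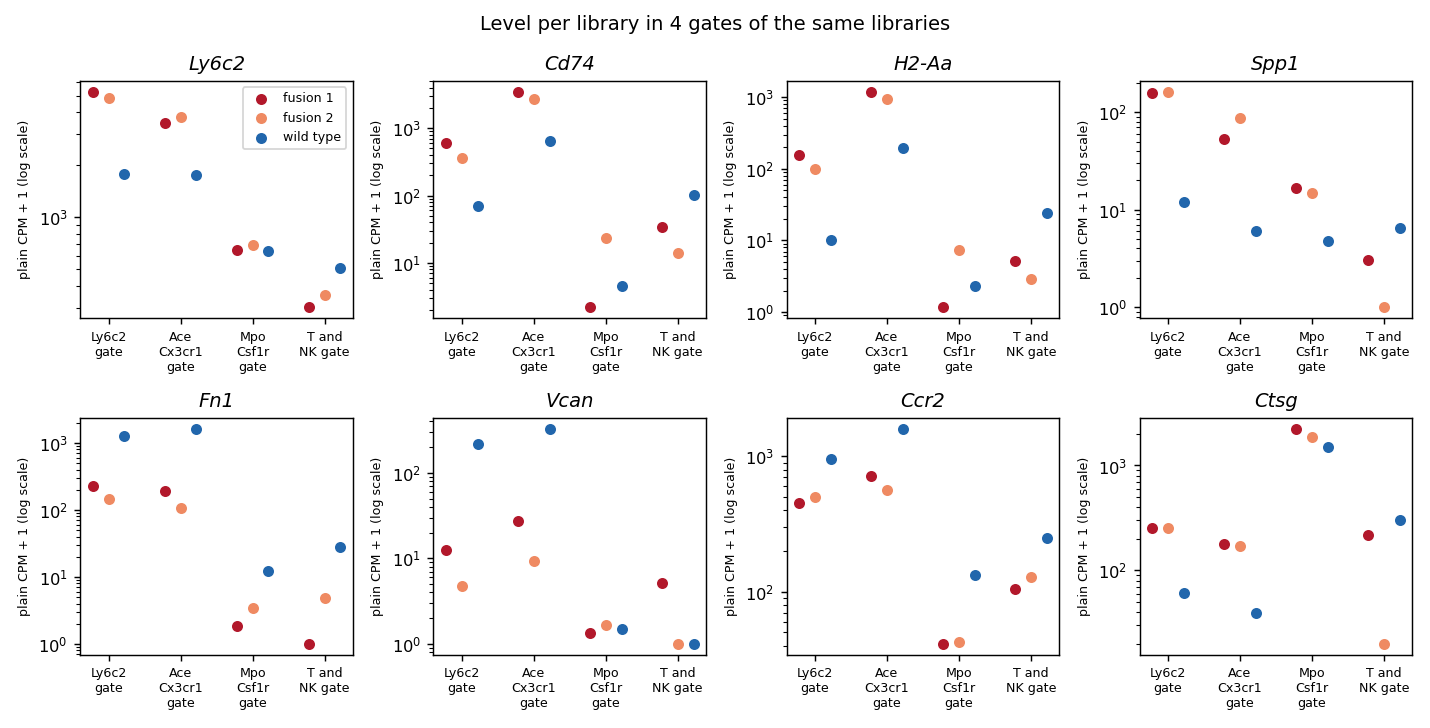
Plain CPM + 1 (log scale) of 8 genes in S100-low cells of the Ly6c2 gate, S100-low cells of the Ace Cx3cr1 gate and of the Mpo Csf1r gate, and T and NK cells, 1 point a library, with fusion replicates 1 and 2 left of wild type. Both fusion libraries lie above wild type for Cd74, H2-Aa and Spp1, and below it for Fn1, Vcan and Ccr2, in both the Ly6c2 gate and the Ace Cx3cr1 gate.

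The differences in the Ly6c2 gate were set beside those in 2 neighbouring gates of the same libraries. Cells with Csf1r and at least 2 of Ace, Cx3cr1, Clec4a3 and Treml4, the Ace Cx3cr1 gate, numbered 100 and 136 in fusion and 167 in wild type. In their S100-low cells Ccr2 was 718 and 566 CPM in fusion, against 1608 CPM in wild type, no lower than in S100-low cells of the Ly6c2 gate. Nonclassical markers outside the gate were higher than in those cells. Cd300e was 68.1 and 110 CPM in fusion and 24.6 CPM in wild type, against 0 in every library of the Ly6c2 gate. Nr4a1 was 83.8, 114 and 77.3 CPM, against 10.9, 11.8 and 7.72 CPM. Markers of both forms were present, so the cells are named here by their gate. There 117 genes rose (1.34% of 8706) and 143 fell (1.64%), and Vcan stood at 26.2 and 8.29 CPM in fusion, against 329.7 CPM in wild type, Fn1 at 190.3 and 106 CPM in fusion, against 1639 CPM in wild type, Spp1 at 52.4 and 86.0 CPM in fusion, against 5.10 CPM in wild type and Cd74 at 3469.7 and 2713 CPM in fusion, against 637 CPM in wild type. Ly6c2, a gate gene only of the first gate, was 3469.7 and 3739 CPM in fusion, against 1748 CPM in wild type. Both gates share the 1 wild-type library. The test of the difference between gates called 22 genes higher (0.23% of 9556) and 71 lower (0.743%) in the Ly6c2 gate than in the Ace Cx3cr1 gate. H2-Aa rose more in the Ly6c2 gate (difference of log2 fold changes 1.35 ± 0.38, edgeR adjusted p = 0.041), as did Hpgd (1.42 ± 0.34, edgeR adjusted p = 0.00585), Clec4a1 (1.29 ± 0.23, edgeR adjusted p = 1.87e-05) and Apoe (0.97 ± 0.19, edgeR adjusted p = 0.000212). Clec4a1 was 278 and 315 CPM in fusion, against 260.0 CPM in wild type in the Ace Cx3cr1 gate. Fn1 fell less in the Ly6c2 gate (0.73 ± 0.18, edgeR adjusted p = 0.00668). Ear2 fell in the Ly6c2 gate relative to the other (-3.21 ± 0.51, edgeR adjusted p = 6.05e-07), where it was 120.5 and 180.3 CPM in fusion, against 220.1 CPM in wild type. With DESeq2, that difference was called for 1 gene higher and 1 lower. Over whole gates, S100-high cells included, edgeR called 28 genes higher (0.285%) and 37 lower (0.376%).

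The Mpo Csf1r gate, cells with Csf1r and at least 10 Mpo UMIs, numbered 301 and 392 in fusion and 614 in wild type, and in its S100-low cells none of 11623 genes tested passed edgeR's threshold (0% in either direction), although 684 (5.88%) had an unadjusted p under 0.05. DESeq2 was not run on that gate alone. Ly6c2 there was 645 and 689 CPM in fusion, against 633 CPM in wild type, and Ctsg was 2249 and 1872 CPM in fusion, against 1511 CPM in wild type. The test of the difference between gates called 27 genes higher (0.243% of 11122) and 49 lower (0.441%) in the Ly6c2 gate than in the Mpo Csf1r gate, and over whole gates 24 higher (0.213%) and 13 lower (0.115%). Spp1 (1.94 ± 0.44, edgeR adjusted p = 0.00324), H2-Aa (2.32 ± 0.58, edgeR adjusted p = 0.0159), H2-Ab1 (2.01 ± 0.36, edgeR adjusted p = 2.58e-05) and Ctsg (1.65 ± 0.14, edgeR adjusted p = 4.43e-28) rose more in the Ly6c2 gate. Vcan (-5.01 ± 0.90, edgeR adjusted p = 2.11e-05), Ccr1 (-2.65 ± 0.48, edgeR adjusted p = 3.09e-05) and Gda (-1.42 ± 0.24, edgeR adjusted p = 2.44e-06) fell more, and in the Mpo Csf1r gate Vcan stood at 0.342 and 0.653 against 0.487 CPM and Ccr1 at 3.42 and 2.83 against 3.76 CPM. Ccr2 fell less in the Ly6c2 gate (0.70 ± 0.15, edgeR adjusted p = 0.000954), with 40.2 and 41.5 CPM in fusion, against 133 CPM in wild type in the Mpo Csf1r gate. Cells of the Ace Cx3cr1 gate numbered 0.688 and 1.23 per S100-low cell of the Ly6c2 gate in fusion, against 1.09 in wild type, counting S100-low cells of both gates. Cells of the Mpo Csf1r gate numbered 2.26 and 3.77 in fusion, against 4.10 in wild type, and for both ratios the fusion libraries differed from each other by more than the nearer one differed from wild type.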

How the data were processed

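The authors deposited raw UMI counts for each gene in each cell barcode. The tools named are bcl2fastq 2.20.0.422 and Cell Ranger 5.0.1 with genome build GRCm38, per the submitters' processing notes, and Cell Ranger 5.0.0, per the file headers. No deposited barcode had under 500 UMIs, and reads were not reprocessed. Cells were filtered and gated as the report states. Doublets were kept in the main results; scrublet (scanpy 1.11.5, expected rate 0.06) marked 225 and 318 cells in fusion and 194 in wild type, of which 3, 6 and 4 were S100-low cells. UMI counts were summed per library and gate and tested with edgeR 4.0.16 (TMM, filterByExpr, quasi-likelihood, R 4.3.3), with genotype as the only term; the gate genes, and S100a8 and S100a9 in S100-low cells, were not tested. The design, 2 libraries against 1, leaves 1 residual degree of freedom. It comes from the fusion pair, so wild type is taken to have the same spread. Because the fit shares spread across genes, a gene whose fusion libraries disagree can still pass. In S100-low cells Pf4, at 8.41 and 375 CPM in the fusion libraries, had edgeR adjusted p = 6.42e-27. The difference between gates is an interaction with library as a block. SE is the log2 fold change divided by the root of the F statistic. CPM of Ly6c2 gate genes tested uses TMM library sizes; CPM in other gates, of gate genes and in marker sums is plain. Exact intervals are Clopper-Pearson and cover counting error only.

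Genes were named by rule: in each direction the 15 called genes of largest log2 change that had a mean of 20 CPM or more, both fusion libraries to the same side of wild type, and a level in the higher group at least 2 times that of T and NK cells. Gate, predicted, antigen receptor, haemoglobin, Xist, mitochondrial, ribosomal and Y-linked genes were left out, and up to 4 members per gene list were added. Genes outside the rule that are named as called list members, markers or non-callers were chosen after their values were seen. The gate, gene lists and markers were chosen with earlier results of these data known, and the S100-low split, Ms4a6c in place of Ly6c2 and Ly6c2 of at least 5 after seeing the data. The fits were tested on simulated data with 1 spread for all genes. Of genes changed 2-fold, edgeR recovered 22 of 96 in S100-low cells and 13 of 100 in the whole gate. Of those changed 4-fold it recovered 77 of 95 and 78 of 96. A gene that did not pass is therefore not shown to be unchanged. DESeq2 1.42.0, other normalization, gates and filters were alternatives.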

Additional observations from a re-analysis of the deposited data

Results flagged for a closer look

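The fusion over wild-type difference of 9 named genes differed between S100-low cells of the Ly6c2 gate and those of the Ace Cx3cr1 gate by edgeR's interaction test (log2 units, Ly6c2 gate minus the other). The differences were 1.35 for H2-Aa, 1.42 for Hpgd, 1.29 for Clec4a1, 0.97 for Apoe, 0.73 for Fn1, 1.04 for Chil3, 0.73 for C3, 1.24 for Mmp8 and −3.21 for Ear2. Against the Mpo Csf1r gate, 19 named genes differed. The difference was 1.94 for Spp1, 2.32 for H2-Aa, 2.01 for H2-Ab1, 1.65 for Ctsg, 1.11 for Il6st, 0.70 for Ccr2, 0.48 for Ms4a6c and 3.81 for Pf4, the last resting on 1 cell of fusion replicate 2. It was −5.01 for Vcan, −2.65 for Ccr1, −1.42 for Gda, −1.34 for Wfdc17, −1.27 for Gsr, −1.05 for Ctsc, −0.90 for Hp, −2.37 for Clec4e, −0.85 for Anxa1, −0.56 for S100a11 and −0.82 for C3. EdgeR adjusted p-values ran over 9556 and 11122 genes, and all 3 gates come from the same 3 libraries.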

How the results depend on the processing

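In S100-low cells, 138 calls became 12 with DESeq2, 6 with DESeq2 size factors in edgeR, 0 with no filter on low counts, 37 after thinning, 61 with equal cells per library, 85 without cells holding a UMI of another lineage, 61 with Ms4a6c in place of Ly6c2 and 0 with Ly6c2 of at least 5. The other 4 alternatives gave 117 to 148. In the whole gate, 201 calls became 29 with DESeq2 (23 higher, 6 lower), 91 with no filter, 108 without predicted doublets, 303 with Ly6c2 of at least 1 and 56 after thinning. The cause of these changes was not tested. Against the Ace Cx3cr1 gate, 65 calls became 0 with DESeq2 (49 genes at an unadjusted p under 0.05), 23 with its size factors and 126 with no filter, and 93 calls in S100-low cells became 2 with DESeq2 and 20 without doublets. Against the Mpo Csf1r gate, 37 calls became 4 with DESeq2, 106 with its size factors, 89 with no filter and 131 without doublets, and 76 in S100-low cells became 3 with DESeq2.

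Fusion over wild type, the whole-gate share was 1.19-fold, and 1.004 with Ly6c2 of at least 4, 1.01 after thinning, 1.09 with the stricter cell filter and 1.501 outside the erythroid gate. The S100-low share was 0.806-fold, and 0.974 after thinning, 0.672 with Ms4a6c and, reversed, 1.02 outside the erythroid gate. The ratios of the Ace Cx3cr1 and Mpo Csf1r gates to the whole Ly6c2 gate were 0.624 and 0.498, and 0.878 and 0.735 among S100-low cells. Leaving out 1 fusion replicate gave 1.13 to 1.25 for the whole-gate share, 0.712 to 0.899 for the S100-low share, and 0.485 to 0.763 and 0.397 to 0.598 for the ratios.

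Of 1009 values of 73 named genes in S100-low cells, 672 kept their direction and, where tested, their call. Another 317 kept direction but lost the call, 13 gained it and 7 reversed. In the whole gate 330 of 360 values kept direction and, where tested, the call. Values without 1 fusion replicate are among these counts, have no test and were judged by direction alone. Those reversed were uncalled: Ms4a6c at 0.11 with equal cells, 0.011 without cells of another lineage, 0.11 with Ms4a6c in the gate and −0.16 to 0.049 without 1 fusion replicate, and Irf8 at 0.42 after thinning, 0.025 without cells of another lineage and −0.13 to 0.028 without 1 fusion replicate. No paired analysis was possible because the groups share fewer than 2 replicate numbers. Counts of calls have no value without a fusion replicate, since 1 library against 1 leaves no residual degree of freedom.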
